A study of Drosophila melanogaster with 2 samples.

Results

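The genes described here are 10 loci of the mesoderm and muscle of *Drosophila melanogaster*, chosen by name out of 13968 protein-coding genes on the chromosome arms. They are 5 regulators (twi, tin, bap, Mef2 and htl) and 5 genes of myoblast fusion and the sarcomere (mbc, sls, Mhc, up and bt). Chromatin occupancy of Ada2b was measured at them by ChIP-seq in whole embryos of the strain Ada2b-GFP, aged 0 to 18 h, which carried a transgene insertion expressing an Ada2b-eGFP fusion and were precipitated with an antibody to GFP. Both samples were biological replicates of this 1 group, so no conditions could be compared. The promoter that drives the fusion and the state of the native Ada2b gene are not stated in the labels. A peak was assigned to a gene where its summit lay inside the gene or within 500 bp of any of its transcription start sites (TSSs). Since chromatin of all embryonic tissues and ages was pooled, occupancy in fewer cells and weaker occupancy in each cell cannot be told apart, and no peak can be placed in muscle rather than in another tissue.

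The mesoderm of the fly embryo is specified by Twist, a basic helix-loop-helix activator that turns on tin, the NK-type homeobox gene needed for the heart and the visceral muscle. Tinman in turn activates bap, a homeobox gene of the visceral mesoderm, while Heartless (htl), a receptor for fibroblast growth factors (FGFs), drives the spreading of mesoderm cells. Mef2 is a MADS-box activator of muscle differentiation whose known targets include many sarcomere genes. Myoblasts then fuse with the help of Myoblast city (mbc), part of an exchange factor for the GTPase Rac, and assemble sarcomeres from proteins such as Sallimus (sls, a titin-like protein of the Z-disc region), myosin heavy chain (Mhc), troponin T (the up gene) and Projectin (bt, a titin-like protein of the thick filament). Ada2b belongs to SAGA, a large coactivator that acetylates histones through the enzyme Gcn5.

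Sequences are shown for sites at tin, htl, mbc and sls: the whole of both narrow promoter peaks, the window of 101 bp around the summit of the htl peak and of the stronger intronic mbc peak, and the 143 bp between the starts of mbc and its divergent neighbour Nup98-96. The mbc promoter peak reaches into this last stretch, but its summit lies outside it, in the 5′ UTR exon of Nup98-96. Each is read 5′ to 3′ on the gene's strand from the NCBI Release 6 genome (dm6), and capitals mark matches to any of the motifs searched, which here are E-boxes, the CANNTG class of sites bound by basic helix-loop-helix factors.
tin, whole promoter peak, chr3R:21378681-21378839, plus strand: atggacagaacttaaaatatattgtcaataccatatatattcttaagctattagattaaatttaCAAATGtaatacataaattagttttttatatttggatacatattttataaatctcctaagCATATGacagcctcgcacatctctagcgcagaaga
htl, intronic summit upstream of the internal start, chr3R:18049693-18049793, minus strand: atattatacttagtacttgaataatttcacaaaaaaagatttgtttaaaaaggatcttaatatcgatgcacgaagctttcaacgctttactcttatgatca
mbc, between both starts, chr3R:23781622-23781764, plus strand: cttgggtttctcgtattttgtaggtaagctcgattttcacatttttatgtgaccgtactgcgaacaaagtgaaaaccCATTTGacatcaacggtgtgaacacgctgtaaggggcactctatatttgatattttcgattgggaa
mbc, intronic summit, chr3R:23782882-23782982, plus strand: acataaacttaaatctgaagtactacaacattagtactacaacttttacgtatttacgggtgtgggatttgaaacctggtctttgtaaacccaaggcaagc
sls, whole promoter peak, chr3L:2115802-2115966, minus strand: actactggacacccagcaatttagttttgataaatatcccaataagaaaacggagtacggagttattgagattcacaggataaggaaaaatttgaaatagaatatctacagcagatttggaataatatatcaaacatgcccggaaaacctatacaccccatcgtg

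The thresholded lists were 2 joint ones made on both replicates, of which the conservative one was the shorter, and 1 for each replicate. Of the 10 genes, 5 had at least 1 peak in the conservative list: tin, Mef2 and htl among the regulators, and mbc and sls among the fusion and sarcomere genes. The conservative list held 4797 peaks and gave a peak to 23.2% of all protein-coding genes. The 5 genes carried 10 peaks in all, 6 at the 3 regulators and 4 at the fusion and sarcomere genes. No peak was called at twi, bap, Mhc, up or bt in any of the 4 thresholded lists. Each peak has a signal, a value of the authors' peak caller with no fixed unit, which was used here only to place peaks within a list. The lists were thresholded on the irreproducible discovery rate (IDR), a measure of how well the rank of a peak repeats, and no conservative peak had a −log10 IDR below 2.00.

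The heart regulator tin (FBgn0004110, chr3R:21378977-21381970, plus strand, 3.0 kb) had the strongest peak of the 10 genes. It lay at chr3R:21378681-21378839, outside the gene, with its summit 177 bp upstream of the single TSS. Its signal was 277, which ranked 395 of 4797 peaks and was above 91.8% of the list, whose median was 86.1. In the replicates' own lists of all candidate peaks, the signal was 162 in replicate 1 (rank 391 of 66541) and 115 in replicate 2 (rank 447 of 53185). Both replicates placed it past the threshold, and it was 1 of the 18.5% of conservative peaks narrower than 310 bp, at 159 bp. The only other candidate at tin in the list of both replicates lay in its intron, 1317 bp downstream of the start, with a signal of 38.5 and a −log10 IDR of 0.905, short of the threshold.

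The neighbouring homeobox gene bap (FBgn0004862, chr3R:21388880-21390449, plus strand, 1.6 kb), which Tinman is known to activate, had no peak. The nearest conservative peak was that of tin, 10.1 kb upstream of bap. Its strongest candidate lay 98 bp upstream of the start with a signal of 22.9, rank 26021 of 92003 in the list of both replicates, and a −log10 IDR of 0.264. By replicate, the strongest candidate had a signal of 11.2 in replicate 1 and 13.2 in replicate 2. The median strongest candidate of genes under 5 kb was 14.1 in replicate 1 and 10.7 in replicate 2, so bap was below that median in the first and above it in the other.

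The FGF receptor gene htl (FBgn0010389, chr3R:18045216-18052984, minus strand, 7.8 kb) had 1 conservative peak, at chr3R:18049588-18049897. Its summit lay in an intron, 377 bp upstream of the internal TSS at position 18049366, which is the downstream one of 2 annotated starts, and 3.24 kb from the upstream one. The signal of 79.6 was above 44.7% of the conservative list, and for each other gene with a peak the strongest one had a higher signal. It was 42.6 in replicate 1, past that replicate's threshold, and 36.1 in replicate 2, where the −log10 IDR of 1.96 fell just short of 2. The peak at htl was thus called in replicate 1 and in both joint lists. Its place among all candidates was alike in the replicates, at percentile 95.2 in each (rank 3178 in replicate 1 and 2536 in replicate 2).

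Mef2 (FBgn0011656, chr2R:9913496-9958858, minus strand, 45.4 kb, 3 TSSs) held the most peaks of the 10 genes, with 4 in the conservative list, all inside the gene and none within 500 bp of a start. Of genes of 20 kb and over, 14.8% had at least 4. The strongest, chr2R:9942920-9943041, had a signal of 168 (rank 920, above 80.8% of the list) and lay 1788 bp downstream of the internal TSS at 9944764, in an exon annotated as 5′ UTR. Its signal was 90.1 in replicate 1 and 81.8 in replicate 2, and both replicates called it.

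The Mef2 summits nearest upstream of that internal start were a pair close together in an intron. The peak at chr2R:9949581-9949890, 4972 bp upstream, had a signal of 102 in the joint list, 38.1 in replicate 1 and 70.0 in replicate 2. It was the only one of the 9 peaks with a candidate in both replicates whose signal was higher in replicate 2, though the lists are not normalized to each other. Its ratio of replicate 1 to replicate 2 signal was 0.544. Over all conservative peaks with both values, this ratio had a median of 1.34 and a 10th percentile of 0.911. A higher signal in replicate 2 was thus not particular to this peak, though its ratio lay below that 10th percentile. The peak at chr2R:9949090-9949399, 4481 bp upstream, had a signal of 63.0 in the joint list and 47.2 in replicate 1, and no candidate of replicate 2 overlapped it. The other thresholded joint list did not hold it, with a −log10 IDR of 0.481. The last Mef2 peak, chr2R:9954662-9954971, lay in the intron 4041 bp downstream of the distal start, with a signal of 60.1 in the joint list, 41.1 in replicate 1 and 21.5 in replicate 2, and neither replicate alone called it. Thus 2 of the 4 Mef2 peaks had a call in both replicates.

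At the starts of Mef2 the signal was lower. The candidate 133 bp downstream of the TSS at 9944764 had a signal of 54.5 and a −log10 IDR of 1.66, short of the conservative threshold, while it was called in the other thresholded list of both replicates and in replicate 1 (37.6), and had a signal of 16.4 in replicate 2. The strongest conservative peak near Mef2 was outside it, 1056 bp upstream of its distal start, at chr2R:9959769-9960053. That peak had a signal of 659, rank 73 of the list, was called in both replicates and lay within 500 bp of the starts of Pal1 and Pdrg1, neighbours named after their values were seen.

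The mesoderm determinant twi (FBgn0003900, chr2R:22985374-23048325, plus strand, 3 TSSs) spans 63.0 kb only through 1 transcript with a distal start, and the other transcripts cover 2218 bp. No peak passed the threshold in either extent. The list of both replicates held 58 candidates at twi, the strongest in the long intron, 17986 bp from the distal start, with a signal of 42.6 and a −log10 IDR of 1.70. In the other joint ranked list the −log10 IDR of this candidate was 0.127. The strongest in replicate 1 had a signal of 30.4 and that in replicate 2 a signal of 18.7, both below the median of genes of 20 kb and over, which was 42.7 in replicate 1 and 28.4 in replicate 2. At the short transcripts the best candidate had a signal of 26.5 in the joint list and 20.7 in replicate 1, and replicate 2 had none. The nearest conservative peak lay 8.7 kb upstream of the distal start (62.1), and neither replicate alone called it.

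**Figure D1:**
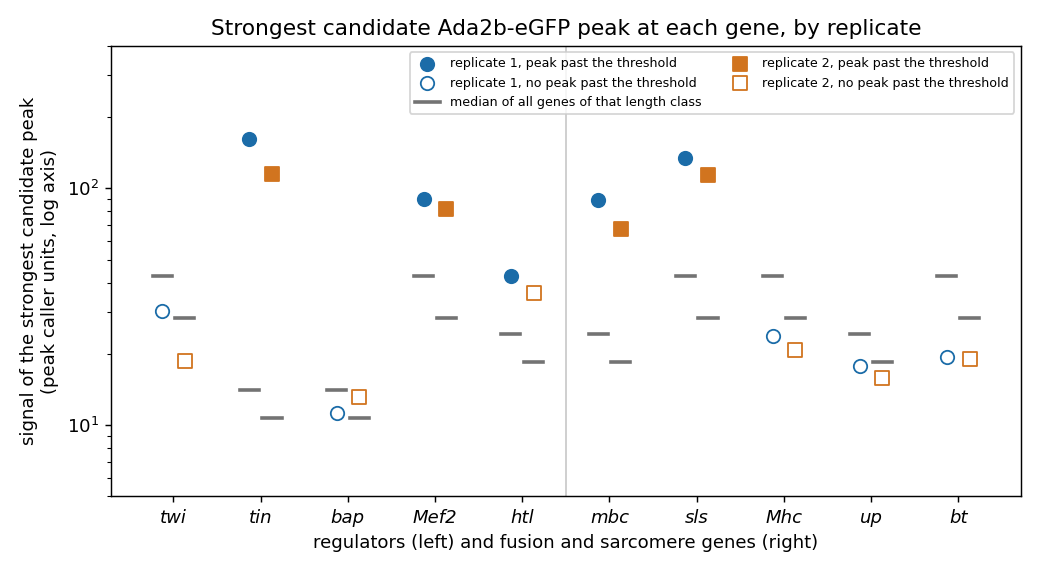
Signal of the strongest candidate peak at each gene (log axis, peak caller units) in replicate 1 (circles) and replicate 2 (squares), regulators on the left and fusion and sarcomere genes on the right. Filled symbols mark a gene with a peak past that replicate's threshold, and grey bars give the median of all genes of the same length class. The symbols of tin, Mef2, mbc and sls are filled in both replicates, and that of htl in replicate 1 alone (42.6) and not in replicate 2 (36.1).

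Among the fusion and sarcomere genes, mbc (FBgn0015513, chr3R:23781765-23801634, plus strand, 19.9 kb) had 3 conservative peaks, all within 2312 bp of its single start. The promoter peak, chr3R:23781418-23781727, had its summit 192 bp upstream of mbc and 48 bp downstream of the divergent start of Nup98-96, a nucleoporin gene, in the 5′ UTR exon of that gene. This peak belongs to both genes by the rule, and by distance it is nearer to Nup98-96. Its signal was 151 in the joint list (rank 1106), 89.3 in replicate 1 and 67.4 in replicate 2, with a call in both.

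Inside mbc, the peak at chr3R:23782777-23783086 lay in an intron, 1167 bp downstream of the start, with a signal of 142 in the joint list, 81.1 in replicate 1 and 56.9 in replicate 2. Both replicates called it, it lay within 500 bp of no other start, and its signal was above 74.4% of the list. The peak 2312 bp downstream of the start, chr3R:23783922-23784231, was the weakest of the 10. Its signal of 47.3 was above 7.03% of the list, with 27.9 in replicate 1 and 25.1 in replicate 2, and neither replicate alone called it. The other thresholded joint list did not hold it either, with a −log10 IDR of 1.71.

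The titin-like gene sls (FBgn0086906, chr3L:2039681-2115611, minus strand, 75.9 kb) is the longest of the 10 and had 1 conservative peak, at its promoter. The summit at chr3L:2115802-2115966 lay 271 bp upstream of the single TSS, outside the gene, and no other gene started within 500 bp. Its signal was 245 in the joint list (rank 478, above 90.1% of the list), 134 in replicate 1 and 114 in replicate 2, with a call in both. Of its 37 candidates, the one nearest below the threshold had a −log10 IDR of 1.31 and a signal of 27.3, in an intron 27397 bp from the start. The next conservative peak outside sls lay 43.4 kb away.

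The myosin heavy chain gene Mhc (FBgn0264695, chr2L:16766566-16788766, plus strand, 22.2 kb, 5 TSSs) had no peak in any thresholded list. Its strongest joint candidate, in a coding exon 14827 bp from the nearest start, had a signal of 40.9 and a −log10 IDR of 1.70. The strongest candidate was 23.8 in replicate 1 and 20.7 in replicate 2, at different places in the gene, since that of replicate 1 lay 14822 bp and that of replicate 2 lay 19398 bp from the nearest start. Within 500 bp of a start the best values were 16.5 in replicate 1 and 13.1 in replicate 2.

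The troponin T gene up (FBgn0004169, chrX:13593474-13602578, minus strand, 9.1 kb, 6 TSSs) had 6 joint candidates, the strongest with a signal of 27.8 and a −log10 IDR of 0.189. The strongest was 17.7 in replicate 1 and 15.8 in replicate 2, each below the median of genes of 5 to 20 kb, which was 24.3 in replicate 1 and 18.4 in replicate 2. Within 500 bp of a start, replicate 1 had a candidate and replicate 2 had none, and the joint list had one with a signal of 19.6.

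The Projectin gene bt (FBgn0005666, chr4:724400-776474, plus strand, 52.1 kb, 3 TSSs) had no candidate within 500 bp of any start in any list. Its 13 joint candidates lay between 26.6 and 43.1 kb from the most 5′ start, and the strongest, in a coding exon, had a signal of 30.3 and a −log10 IDR of 0.728. The strongest was 19.4 in replicate 1 and 19.0 in replicate 2. Candidates were sparse along bt, with 0.250 per kb, against a median of 0.762 per kb over genes of 20 kb and over.

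**Figure D2:**
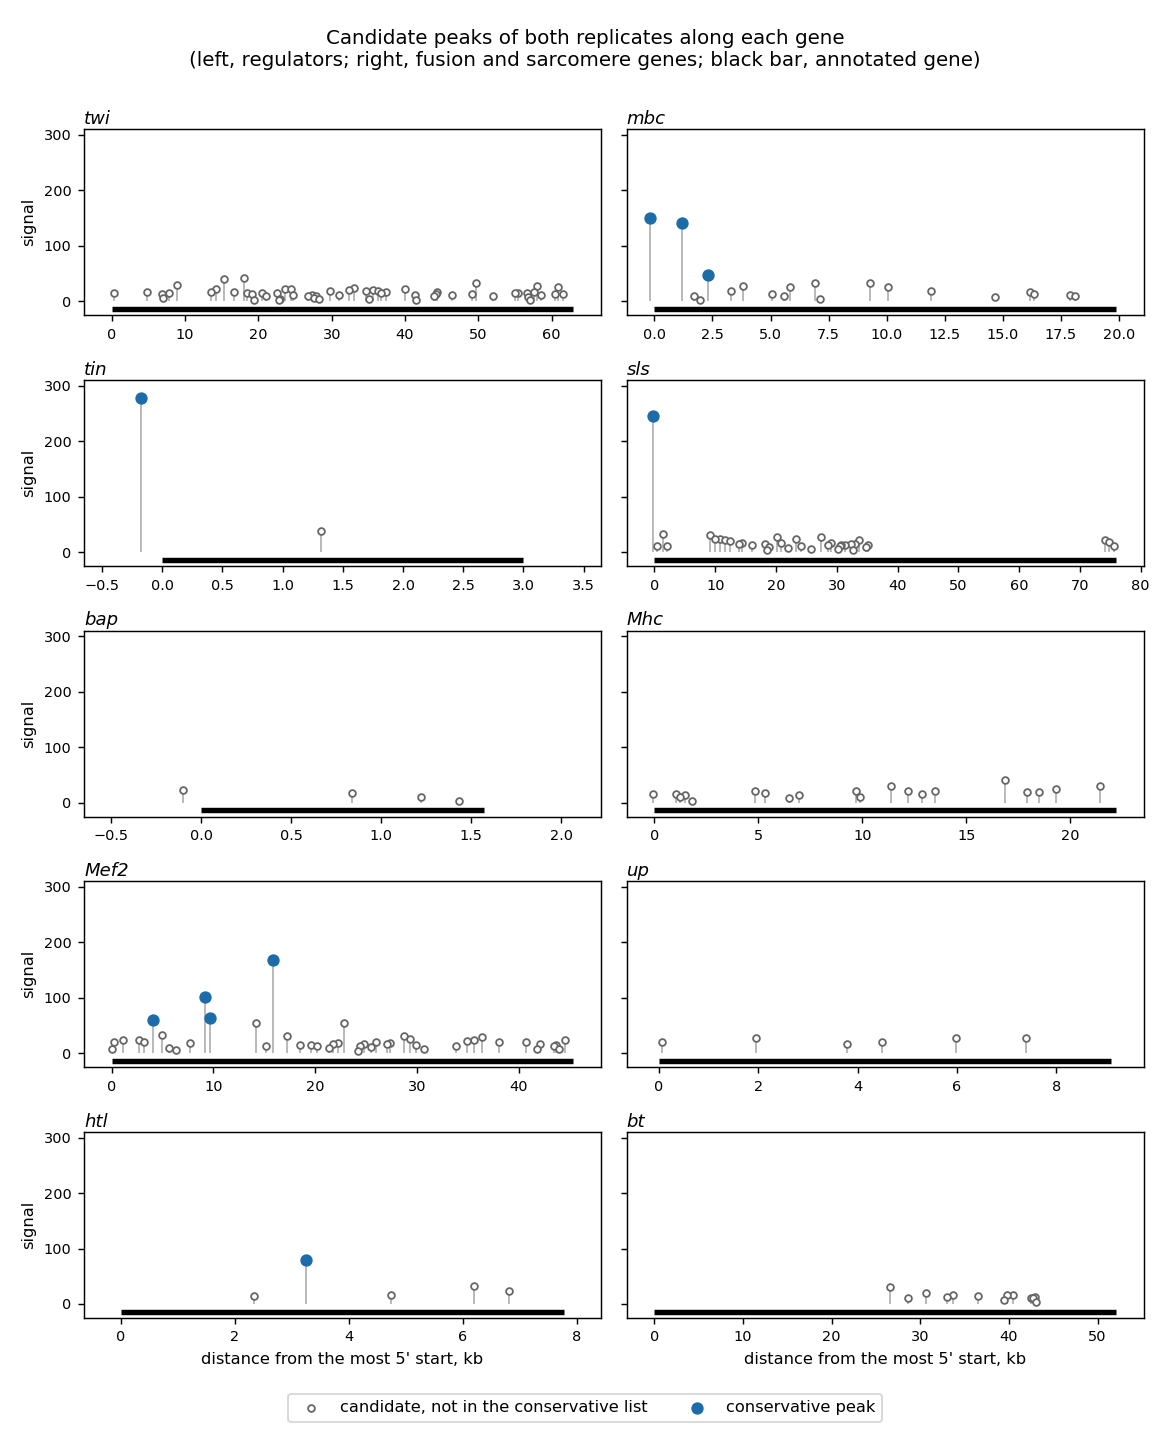
Signal of every candidate in the ranked list of both replicates (vertical axis, peak caller units) against distance of its summit from the most 5′ start along the gene's strand (horizontal axis, kb, with its own scale in each panel), regulators in the left column and fusion and sarcomere genes in the right. Filled points are conservative peaks and the black bar is the annotated gene. At tin and sls 1 filled point stands just upstream of the gene (277 and 245), at Mef2 4 filled points stand inside it, and twi, bap, Mhc, up and bt have open points alone, none above 42.6.

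Set side by side, 3 of 5 regulators and 2 of 5 fusion and sarcomere genes had a conservative peak, a difference of 1 gene that was not tested. The signals of the peaks ran over like ranges, from 60.1 to 277 with a median of 90.6 at the regulators, and from 47.3 to 245 with a median of 146 at the fusion and sarcomere genes. Over both groups 6 of 10 peaks were at or above the median of the conservative list, 3 in each group. A peak within 500 bp of a TSS was found at 2 regulators (tin and htl) and at 2 fusion and sarcomere genes (mbc and sls), where 17.5% of all protein-coding genes had one. All 4 of these summits lay upstream of the nearest TSS of their own gene, and that at mbc lay downstream of the nearer start of Nup98-96. No share of upstream summits over all promoter peaks was set beside this, so it describes these 4 peaks alone.

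By single replicate, replicate 1 called a peak at 5 of the 10 genes, 3 regulators and 2 fusion and sarcomere genes, against 19.4% of all genes. Replicate 2 called one at 4, all but htl, against 17.6% of all genes. A conservative peak that overlapped a peak of each replicate was present at 4 genes, tin and Mef2 among the regulators and mbc and sls among the others, against 14.8% of all genes. Counted by peak, 6 of 10 recurred in both replicates, 3 in each group, where 51.7% of all conservative peaks did. The 2 peaks that neither replicate called alone were the Mef2 peak near the distal start and the weakest mbc peak.

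**Figure D3:**
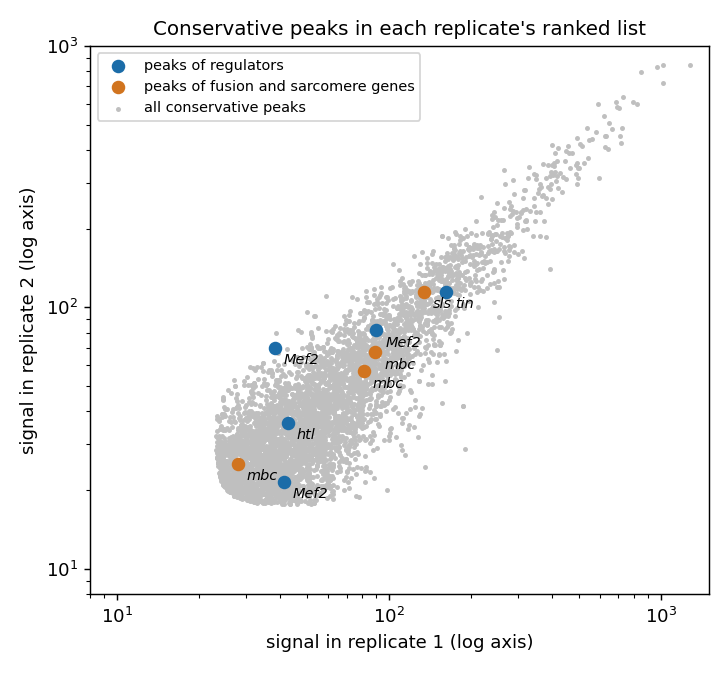
Signal in replicate 2 (vertical log axis) against signal in replicate 1 (horizontal log axis) for conservative peaks with a candidate in both replicates' ranked lists. Grey points are all such peaks, blue points those of regulators and orange points those of fusion and sarcomere genes, 9 of the 10 peaks in all. The sls and tin peaks are the strongest of the 9 in both replicates (134 and 114 at sls, 162 and 115 at tin), and 1 Mef2 peak lies at the upper edge of the grey cloud (38.1 in replicate 1 and 70.0 in replicate 2).

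Longer genes offer more room for a peak, so the genes were also set beside genes of like length. Among genes under 5 kb, 1 of 2 members had a peak (tin and not bap), against 16.4% of all genes of that length. Among genes of 5 to 20 kb, 2 of 3 had one (htl and mbc and not the up gene), against 36.9%. Among genes of 20 kb and over, 2 of 5 had one (Mef2 and sls, and not twi, Mhc or bt), against 60.0%. In this longest class the members' share was below that of the class, and in both shorter classes above it. Counted by its short transcripts, twi would fall in the shortest class, which makes 1 of 3 there and 2 of 4 in the longest. None of these differences was tested, since 10 chosen genes are no sample.

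The strongest candidate of each gene, placed among genes of the same length class, gave the same order in both replicates at the top. As a percentile of the class, mean ± SD over 2 replicates, tin stood at 97.9 ± 0.358, Mef2 at 79.7 ± 4.51 and htl at 73.5 ± 2.57, while bap stood at 50.6 ± 16.8 and twi at 31.6 ± 8.11. Among the fusion and sarcomere genes sls stood at 88.8 ± 1.59, mbc at 87.1 ± 0.200, up at 32.9 ± 7.72, Mhc at 28.5 ± 8.18 and bt at 19.1 ± 11.9. The 5 genes with a peak were thus above 70 in each replicate, and twi, Mhc, up and bt below 40 in each, with bap on either side of the middle. The calls and this order come from the same candidates, so neither is separate evidence for the other. Of neighbours in this order, up and twi, twi and Mhc, and Mhc and bt had ranges over the replicates that overlapped. The place of twi rests on its distal start, since at its short transcripts the best candidate was 20.7 in replicate 1, above the 14.1 that was the median of genes under 5 kb, and replicate 2 had none.

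**Figure D4:**
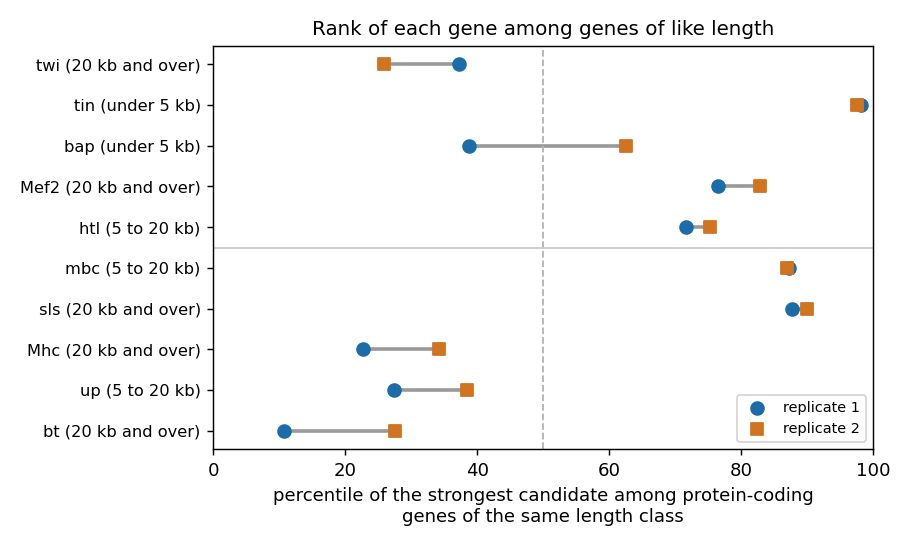
Percentile of each gene's strongest candidate among protein-coding genes of the same length class (horizontal axis), in replicate 1 (circles) and replicate 2 (squares), regulators above and fusion and sarcomere genes below the grey line, with the class in brackets and the dashed line at 50. In each replicate tin, Mef2, htl, mbc and sls lie right of the line and twi, Mhc, up and bt left of it, and bap lies at 38.8 in replicate 1 and 62.5 in replicate 2.

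The other genes of these pathways were taken from 3 further lists of 72 genes, of which 20 had a conservative peak. Of 24 mesoderm and heart regulators and FGF signalling genes, 6 had a peak (25%, against the 23.2% of all genes). By length these were 0 of 9 under 5 kb, 1 of 8 from 5 to 20 kb and 5 of 7 at 20 kb and over. The shares of all genes in these classes were 16.4%, 36.9% and 60.0%. The strongest peaks on the list were at zfh1, a zinc finger homeodomain factor of the mesoderm (374), ths, which encodes an FGF ligand of Heartless (205), and how, an RNA-binding protein of muscle and tendon (175). All 3 lay in introns, were called in both replicates and were over 1 kb from a start, at 1490, 1447 and 7146 bp.

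The FGF pathway to which htl belongs had a peak at each of its listed genes, a grouping made after the values were seen. Besides htl and ths these were stumps, the adaptor that acts downstream of the receptor (111, 365 bp upstream of a start, called in both replicates), and pyr, the other ligand (49.2, 72 bp upstream of its start, called in neither). Replicate 1 alone called 3 of these 4 genes and replicate 2 alone 2, so the count of 4 rested on the joint list. The 4 genes ran from 7.77 to 57.6 kb with a median of 22.5 kb, and a conservative peak was found at 36.9% of all genes of 5 to 20 kb and at 60.0% of those of 20 kb and over.

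Of 16 myoblast fusion genes, the group of mbc, 7 had a peak (43.8%, against the 23.2% of all genes). By length these were 1 of 5 under 5 kb, 3 of 5 from 5 to 20 kb and 3 of 6 at 20 kb and over, where the shares of all genes were 16.4%, 36.9% and 60.0%. The strongest was at kirre, an adhesion receptor of founder myoblasts (340, in an intron 45983 bp from the nearest start), a gene of 394.1 kb that held 21 of the 34 peaks on the list. Next came siz, an exchange factor for Arf GTPases (134), and rols, an adaptor that binds Kirre (104), both in introns and called in both replicates. By replicate, 7 of the 16 genes had a peak in replicate 1, against 19.4% of all genes, and 4 in replicate 2, against 17.6%. The 7 of replicate 1 need not be the same genes, since neither replicate called the conservative peak at Rac2. Some peaks on the list also lay at other genes, named after their values were seen. The Vrp1 peak lay within 500 bp of the start of mei-S332. The Rac2 peak lay inside CG42458, and the strongest kirre peak inside CG32795.

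Of 32 genes of the sarcomere and muscle attachment, the group of sls, Mhc, up and bt, 7 had a peak (21.9%, against the 23.2% of all genes). By length these were 0 of 14 under 5 kb, 2 of 11 from 5 to 20 kb and 5 of 7 at 20 kb and over. The shares of all genes in these classes were 16.4%, 36.9% and 60.0%. The strongest peaks on the list were at tmod, which caps the pointed ends of thin filaments (358), Msp300, a nesprin-like protein (303), and Zasp66, a protein of the Z-disc (193). All 3 lay in introns, at 1424, 630 and 1124 bp from a start, and were called in both replicates. The strongest peak at Actn also lay within 500 bp of the starts of CG4313 and usp, genes named after their values were seen. None of the 14 listed genes for actins, tropomyosins, troponins, myosin light chains and paramyosin had a conservative peak, a grouping made after the values were seen, and with Mhc and up this makes 0 of 16 genes. Of the 14, Tm1 was called in replicate 1 and in the other joint list, and replicate 2 called none. These 14 genes ran from 1.44 to 30.6 kb with a median of 3.11 kb, and of all genes under 5 kb 16.4% had a peak. Some of the 14, and also up and Mhc, fell in the longer classes. There 36.9% (5 to 20 kb) and 60.0% (20 kb and over) of all genes had one.

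Over the 72 other genes, as over all genes, the share with a peak went with length, at 1 of 28 under 5 kb, 6 of 24 from 5 to 20 kb and 13 of 20 at 20 kb and over. The share was 3.57%, 25% and 65% from the shortest class to the longest, below the 16.4% and 36.9% of all genes in both shorter classes and above the 60.0% in the longest. Among the 10 members the order was not the same, since the longest class had the lowest share. This rests on the place of twi. With twi counted by its short transcripts, the lowest share was in the shortest class (1 of 3), and the longest had 2 of 4.

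**Figure D5:**
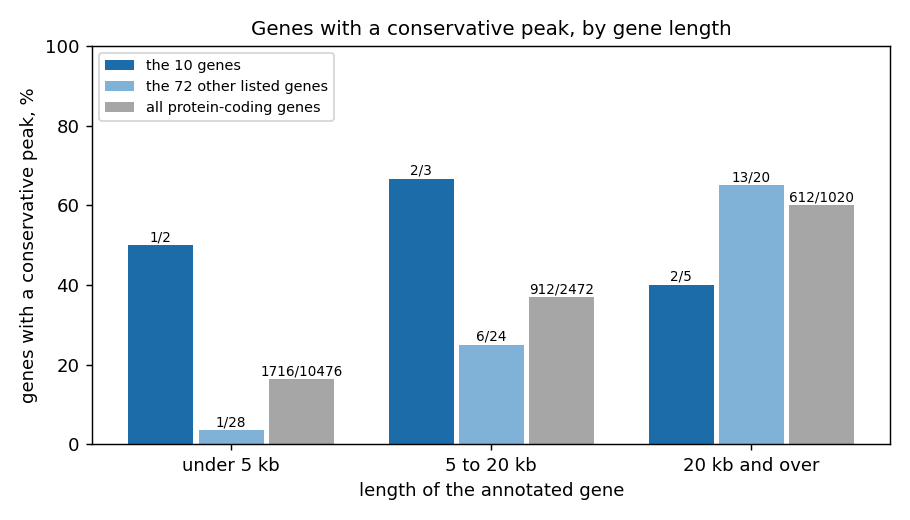
Share of genes with a conservative peak (vertical axis, percent) by length of the annotated gene, for the 10 genes (dark blue), the 72 other listed genes (light blue) and all protein-coding genes (grey), with the number of genes with a peak over the number in the class above each bar. The dark bars rest on 2, 3 and 5 genes. Among all genes the share is 16.4%, 36.9% and 60.0% from the shortest class to the longest.

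In the flanks, up to 20 kb from each gene, further conservative peaks were found at 6 of the 10 genes: 3 at twi, 1 at tin, 2 at bap (1 of them the tin peak) and 1 at Mef2 among the regulators, and 4 at mbc and 1 at up among the others. Of all protein-coding genes, 75.1% had such a further peak within 20 kb. None lay there for htl, sls, Mhc or bt, whose nearest outside peaks were 26.0, 43.4, 27.4 and 31.1 kb away. Apart from the tin peak (277) counted beside bap, the strongest were at Pal1 and Pdrg1 beside Mef2 (659), at the start of tst 8.8 kb upstream of mbc (391), and in the mod(mdg4) locus 13.5 kb upstream of tin (246), neighbours named after their values were seen.

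The 101 bp around each of the 10 summits were searched on both strands for GAGAG, the E-box CANNTG, its forms CATATG and CACATG that Twist is known to bind, TCAAGTG with its reverse complement CACTTGA (bound by Tinman), TATCGATA (the DNA replication-related element) and the Mef2 site. A CATATG also counts as a CANNTG. An E-box was found at 3 of the 10 summits, 1 at tin and 2 at Mef2, where 33.9% of all conservative peaks held one. The tin match was CATATG, which 3.48% of all peaks held, and it is the second of the E-boxes in capitals in the tin peak shown above, the first not lying wholly inside the 101 bp. No match to the other 5 patterns was found, which were held by 8.78% (GAGAG), 3.50% (CACATG), 1.44% (TCAAGTG or CACTTGA, which match the same windows), 1.15% (TATCGATA) and 7.92% (the Mef2 site) of all peaks. The GC content of the 10 windows was 26.7% to 57.4% with a median of 33.2%, against a median of 31.7% over all peaks, and the highest value was at the strongest Mef2 peak.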

How the data were processed

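Ada2b-eGFP ChIP-seq of 2 replicates was analysed from 8 peak lists in dm6, 4 of the series and 2 of each replicate, each either thresholded or a ranked list of all candidates. Per the file headers and the labels, chromatin was sonicated to 200 to 800 bp. Which aligner and peak caller were used is not given in the sources used here, and no control was analysed. The deposited score is a rescaled IDR, at least 830 in each thresholded list. The deposited signal is the authors' peak caller value, not normalized between lists and used only within a list. The deposited −log10 values include the −log10 IDR of the ranked lists. Read depth is unknown, and 8 further columns of per-sample values were not used. The joint ranked list was the one that held 100% of the conservative peaks past the threshold, against 88.8% for the other.

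Genes came from Ensembl release 115 on 7 arms (4796 of 4797 conservative peaks), sequences from NCBI Release 6, and no peak passed an arm's end. Listed names were matched by symbol, and Unc-89 as Obsc through the RefSeq gene table. A replicate peak matched at 1 bp of overlap. A percentile is the share of the list, or of genes in the class, with a lower signal. No test was made, since there is 1 group and the genes were chosen; nothing in the labels says how the replicates were separated beyond being biological. The members, the lists and the motifs were chosen with earlier results of these data known. Named genes were, by rule, every member, genes starting within 500 bp of a summit at a member, and up to 3 genes per other list with the strongest peak; others are marked in the text. Alternatives were the other joint list, each replicate alone, stronger peaks, other TSS windows, any overlap and other motif windows. The assignment of peaks to genes was tested on simulated data. Python 3.11.15, numpy 2.4.6, pandas 2.3.3 and matplotlib 3.10.9 were used.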

Additional observations from a re-analysis of the deposited data

How the results depend on the processing

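The count of genes with a peak was 4 or 5 of 10 under each alternative: the other joint list, stronger peaks, other TSS windows, any overlap, each replicate alone, and both alternatives chosen after seeing the data (twi without its longest transcript, and promoter peaks counted for the nearest TSS alone, which left 9 peaks). With a TSS window of 250 bp the fusion and sarcomere genes with a peak came to 1, since sls lies 271 bp from its start. The regulators with a peak came to 2 with stronger peaks, in the TSS window alone and with replicate 2 alone. The fusion and sarcomere genes also stood at 2 there, so the groups were equal. The 10 peaks came to 9 in the other joint list, 6 among the stronger peaks and 4 in the TSS window alone. That joint list lacked a Mef2 peak and an mbc peak and held a further peak at a Mef2 start. Without 1 replicate the peaks came to 6 to 9, lowest with replicate 2 alone. The share of all genes with a peak was 14.6% with stronger peaks, 21.2% at 250 bp, 24.7% at 1000 bp, 17.5% in the TSS window alone and 17.6% to 19.4% without 1 replicate. The 20 other listed genes with a peak came to 13 with stronger peaks and 10 in the TSS window alone. The 4 motif matches came to 8 in windows of 100 bp each side and 2 with 25 bp, by the windows' size. Each of these counts holds the CATATG at tin under both patterns that it matches, CATATG and CANNTG. No paired analysis was possible because there is 1 group. Read depth is unknown, so a gene without a peak is one with none detected in these lists.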
